A study of Sus scrofa with 12 samples.

Results

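The chromatin-associated RNAs (caRNAs) of LRRFIP1 and SESN1 were described along their own chromosomes and set against the H3K27ac chromatin loops that start at their own gene ends. These are 2 of the 1094 RNAs listed in at least 1 of 4 GRID-seq libraries. They were taken by gene name, and the pair was picked with values from these same tables in view. Where each RNA lay, and how that differed between libraries, is therefore given as a description with no test of either gene.

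The tissue was longissimus dorsi muscle of male piglets, 2 weeks old, from the Large White (LW) and Meishan (MS) breeds, with 2 GRID-seq and 2 H3K27ac BL-HiChIP libraries for each breed. No transgene or treatment is named for either breed. GRID-seq ligates RNA to the chromatin it touches, and the deposited value, in a list without a header, was read as a background-corrected signal in bins of 1 kb. Every share and signal per kb given here rests on that reading. BL-HiChIP captures contacts between H3K27ac-marked fragments, and each deposited loop joins a pair of anchors of 5 kb. The libraries listed 519 to 681 RNAs with 7172517 to 9943666 RNA reads in all, and 33353 to 57028 loops. Of 15 muscle fibre markers, 10 or 11 were listed in each library, with 11.9% to 15.3% of the reads. None of the 4 adipocyte, 4 endothelial, 4 immune or 2 satellite cell markers was listed, and fibroblast markers took at most 0.111% of the reads.

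Sestrin 1, encoded by SESN1, is a stress-induced protein that binds leucine and restrains mTORC1 through the GATOR complexes, and sestrins are known as regulators of muscle mass. LRRFIP1 encodes a nucleic acid-binding protein that interacts with flightless I, acts as a transcriptional repressor and takes part in innate immune and Wnt signalling. Nascent RNA is known to stay near its gene, and loops can bring distant chromatin next to it.

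In the terms used here, an own anchor lies within 1 kb of a gene end, a far anchor is the other end of such a loop, and the stretch between the anchors is counted apart. Loops of all 4 BL-HiChIP libraries were pooled for this purpose. The gene body and the 10 kb on each side of it were taken out first, so the far-anchor share holds only distant anchors.

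SESN1 lay on chromosome 1 (Sscrofa11.1, 75033098 to 75169987, minus strand) in the GRID-seq lists. RefSeq ends the gene 23.6 kb earlier on its 3′ side, at 75056731. Both outlines overlap the end of ARMC2, a gene of sperm flagella that RefSeq places at 74923824 to 75081742. The RNA had 25607 reads in LW replicate 1 and 28468 in LW replicate 2, which placed it 70th of 571 and 78th of 681 RNAs. It was not listed in either MS library, and no RNA overlapping the gene was listed there. A missing row does not show that the RNA was absent. Unnamed Tx transcripts and names that stand for several loci were left out of the next counts, and Ensembl identifiers were kept. Of 80 such RNAs with at least 20000 reads in both LW libraries, 11 were missing from both MS libraries. TRDN, which encodes triadin of the muscle triad, was also one of them. In the other direction, 4 of 53 were missing from both LW libraries.

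The pooled loops held 35 with an own anchor at SESN1, with 12 and 16 called in the LW libraries and 12 in each MS library. They spanned 5 to 825 kb with a median of 135 kb, and 20 of them spanned at least 100 kb. No single loop was called in all 4 libraries, 1 was called in 3, 15 in 2 and 19 in 1. The gene start falls close to the border of 2 own anchors, and loops from each were counted apart. Taken by their far end, 3 distant anchors were used in all 4 libraries, at the start of FOXO3, in ARMC2 and at CD164.

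Most of the distant SESN1 RNA lay inside this loop territory. The gene body held 38.1% of the signal in LW replicate 1 and 35.4% in LW replicate 2. The far anchors beyond 10 kb held 4.42% and 4.26%, and the stretches between anchors held 38.6% and 36.0%. Elsewhere on chromosome 1 lay 15.1% and 21.2%, and no bin of another chromosome was listed. The far-anchor share depended on how anchors were set, with a mean of 4.34% here, 1.57% with loops called in both LW libraries, 10.6% with anchors widened by 5 kb, and 0 with loops called in all 4 libraries. The between-anchor share stayed between 31.3% and 42.0% in the alternatives, apart from 0 with loops called in all 4 libraries. The libraries differed most in the part elsewhere on the chromosome. Of the signal beyond 10 kb, 74.0% and 65.5% lay on far anchors or between anchors (mean 69.8% ± 6.05, SD, n = 2). Counted by far anchors alone the share was small, since 14 distant anchors cover 70 kb and the stretches between them cover 958 kb.

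Among the 527 and 630 RNAs with an own loop in these libraries, SESN1 ranked 11th and 15th by its between-anchor share. The medians over those RNAs were 2.01% and 4.02%. By far-anchor share it ranked 122nd and 179th, against medians of 0.590% and 1.14%. These shares depend on how much ground a gene's own loops cover, 958 kb between anchors for SESN1. The ranks were not adjusted for that. The pair was picked with such values in view, so the ranks are a description.

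**Figure D1:**
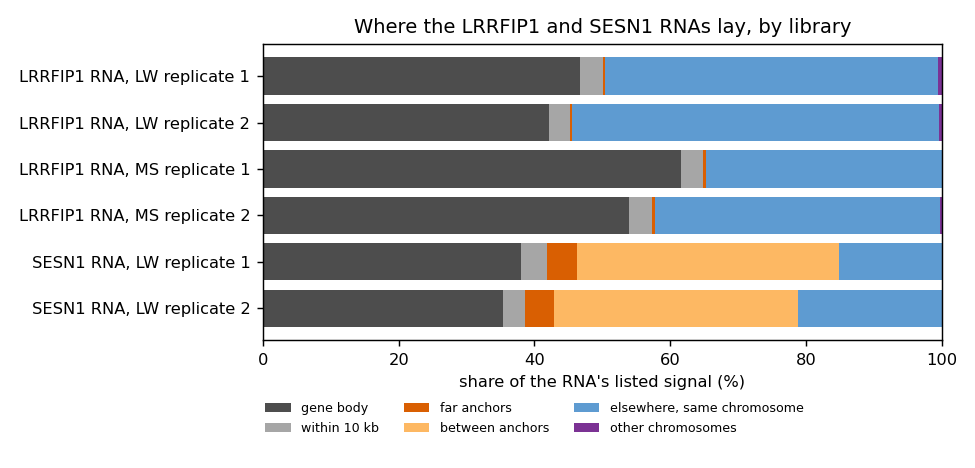
Share of each RNA's listed signal (x axis, percent) by library (y axis), with colours for the gene body, the 10 kb around it, far anchors, stretches between anchors, the rest of the chromosome and other chromosomes. The between-anchor part took 38.6% and 36.0% of the SESN1 RNA in the LW libraries and 0 of the LRRFIP1 RNA in all 4 libraries.

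All 70 bins of the 14 distant far anchors carried SESN1 RNA in both LW libraries. Between the anchors 79.0% and 89.1% of bins were listed. The mean signal on the distant anchors was 39.1 and 44.8 per kb, against 24.9 and 27.6 per kb between them. Anchors of any pooled loop, not only own loops, also carried more SESN1 RNA than other bins at most distances. At 1000 to 2000 kb, beyond the own loops, they had 3.79 and 5.17 per kb, against 0.820 and 1.75 off anchors. At 10 to 50 kb they had 53.5 and 60.4, against 52.3 and 60.4. At 200 to 500 kb from the gene, where both kinds of bins are found, far anchors had 38.9 and 34.8 per kb and between-anchor bins 26.1 and 27.7. Bins outside the loops had 10.7 and 17.2. Those bins all lay upstream, beyond the 360 kb that the loops reach there. Their lower level cannot be told apart from distance and side. The deposited signal is smooth over more than 20 kb, since at most 2 runs of adjacent listed bins per library were shorter than 22 bins, so a 5-kb anchor cannot be resolved from its closest surroundings. The anchors exceeded the 5 kb on each side in 10 and 11 of 14 cases, with median ratios of 1.15 and 1.12. Where another far anchor adjoined, only the other side was compared. Against bins 25 to 50 kb away the anchors were higher in 12 and 13 of 14 cases, with median ratios of 1.45 and 1.73. For the anchors at 18.1 and 25.0 kb from the gene, those bins lay only on the side away from it. There the excess cannot be told apart from distance. The 14 anchors lie close together in places and share a profile, so these counts are not independent tests.

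The anchor at the start of FOXO3, a forkhead transcription factor that drives atrophy genes in muscle, stands 403 kb downstream of SESN1. SESN1 RNA there was 36.7 and 44.1 per kb, against 25.1 and 24.8 at 25 to 50 kb from the anchor. At CD164, which encodes a sialomucin, 285 kb upstream, it was 38.0 and 32.1 against 33.1 and 33.7, higher in one library and lower in the other. The anchor in ARMC2, only 18.1 kb from the gene, had the highest level with 85.0 and 126 per kb. MICAL1, encoding a monooxygenase that disassembles actin, had 60.7 and 49.1 on its anchor 350 kb upstream. The loop to that anchor was called in the MS libraries only, where SESN1 RNA was not listed. At 25 to 50 kb from the anchor SESN1 RNA was 20.5 and 20.8 in LW. The 5 kb beside the anchor held 49.5 and 52.1, so in LW replicate 2 the anchor was not above its closest surroundings. The border of CEP57L1 and C1H6orf183, 55.0 kb upstream, had 46.4 and 55.0. The farthest anchor, at SNX3, a sorting nexin gene 683 kb downstream, had 1.94 in LW replicate 1 and 29.5 in LW replicate 2. That loop was called only in LW replicate 2 of BL-HiChIP. One further anchor, 100 kb upstream, also differed widely between libraries, with 9.23 and 35.8.

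**Figure D2:**
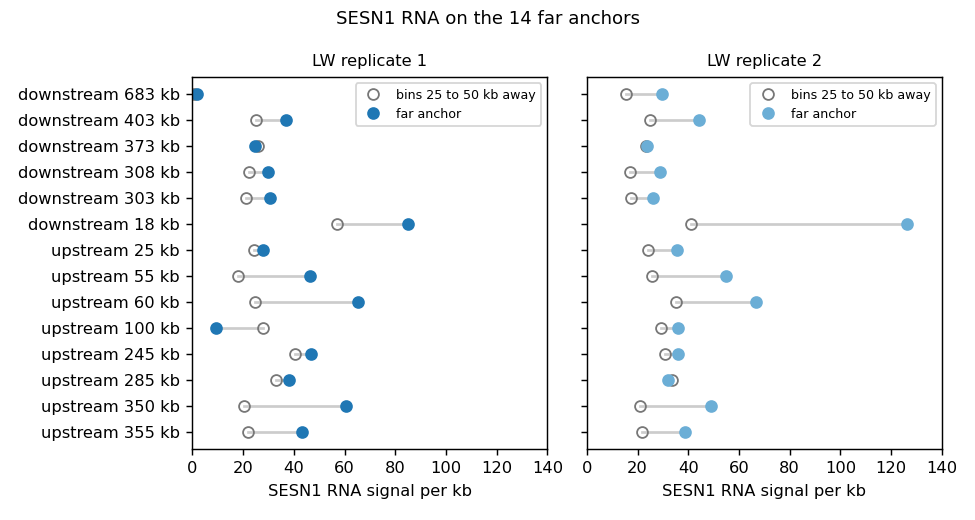
SESN1 RNA signal per kb (x axis) on each of the 14 far anchors beyond 10 kb (filled) and in bins 25 to 50 kb from it (open), by distance and side of the gene (y axis), in both LW libraries. The filled points lie to the right for 12 anchors in LW replicate 1 and 13 in LW replicate 2. For the anchors at 18.1 and 25.0 kb the open points hold only bins on the side away from the gene.

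The profile fell off differently upstream and downstream of SESN1. The pooled loops reached 688 kb downstream and 360 kb upstream. From 10 to 360 kb the mean signal was 35.4 and 37.5 per kb downstream and 30.2 and 32.1 upstream. From 360 to 688 kb, inside the loops downstream and outside them upstream, it was 11.2 and 15.9 downstream and 5.82 and 9.83 upstream. This band was chosen after the profile was seen, and the 825-kb loop that sets its outer limit was called in 1 library. With only the far anchors used in all 4 libraries, the same comparison covered 290 to 408 kb and went the other way, with 22.2 and 23.9 downstream and 28.3 and 31.7 upstream. From 500 to 1000 kb the upstream side held 0.886 and 1.68 per kb and the downstream side 6.05 and 11.7. Beyond 1 Mb lay 8.20% and 10.9% of the signal.

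**Figure D3:**
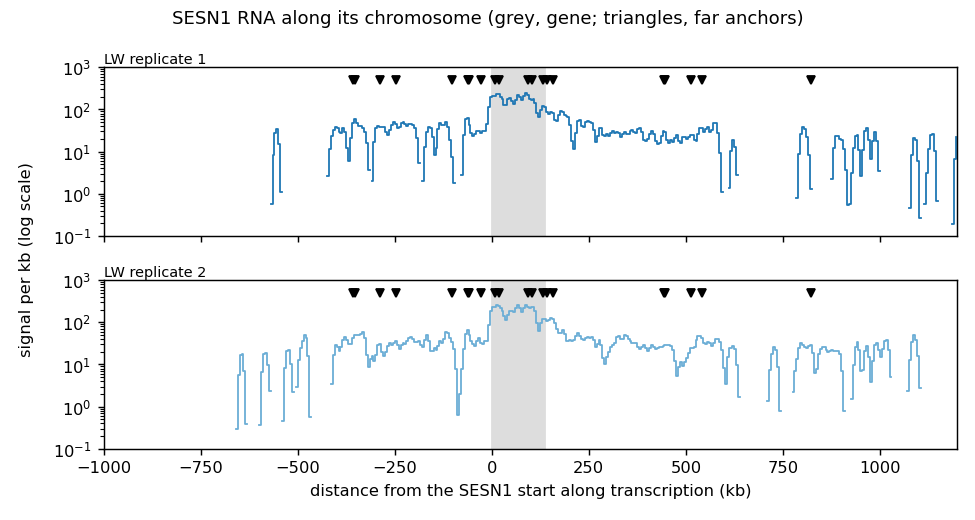
SESN1 RNA signal per kb in steps of 5 kb (y axis, log scale, gaps where no bin was listed) against distance from the gene start along the direction of transcription (x axis, kb), with the gene in grey and all far anchors as triangles. Signal is nearly unbroken over the stretch that holds most anchors and breaks into separate runs outside it.

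FOXO3 RNA at the start of SESN1 was looked at after the values above were known. It was higher there than 25 to 50 kb to either side in all 4 libraries, MS included. FOXO3 RNA was listed under an Ensembl identifier (ENSSSCG00000004387, which the gene table pairs with FOXO3) with 16276 and 17658 reads in LW and, in MS, 12055 and 14192. On the 5-kb anchor that holds the listed SESN1 start it had 47.0 and 52.7 per kb in LW and, in MS, 48.7 and 61.9. Into SESN1, 25 to 50 kb from there, it had 0.0250 and 18.4 in LW, compared with 0 and 6.07 in MS. On the upstream side, at the same distance, it had 4.68 and 2.79 in LW, against 1.53 and 0 in MS. The anchor was higher than these windows on both sides in each of the 4 libraries, and LW and MS overlapped. The adjoining anchor had 40.9 and 38.1 in LW, against 46.2 and 50.3 in MS. Over the stretch between FOXO3 and SESN1, FOXO3 RNA averaged 66.7 and 84.1 in LW, above the anchor. In MS it averaged 38.9 and 49.0, below the anchor. Over the whole SESN1 body lay 3.91% and 6.04% of FOXO3 RNA in LW, with 2.31% and 4.19% in MS. On the distant far anchors of SESN1, several of which lie in FOXO3 itself, it was the RNA with the most signal, ahead of SESN1 RNA in LW. The next RNAs on these anchors had at most 2.38 per kb, such as EYA4 in MS replicate 2, PDE7B in MS, and TRDN in LW with 0.472 and 0.420.

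LRRFIP1 lay on chromosome 15 (Sscrofa11.1, 137283276 to 137439385, plus strand), with ends that nearly match those of RefSeq. Its reads were 24285 and 27270 in LW and, in MS, 15567 and 18963, and it ranked 71st to 82nd. In LW replicate 2 an RNA named RBM44, with 11737 reads on the same strand, was listed over the last part of the gene, and reads there cannot be assigned to one of them.

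LRRFIP1 had almost no loop territory of its own. Only 4 loops had an own anchor there, with 0 and 3 called in LW replicates and 2 and 1 in MS replicates. The longest spanned 50 kb and lay within the gene. The only loop called in more than 1 library spanned 5 kb at the gene start, and a loop of 10 kb, called in LW replicate 2 alone, was the only one to leave the local zone. The distant far-anchor share was 0.395% and 0.315% in LW, compared with 0.443% and 0.401% in MS, from 3 bins. The between-anchor share was 0 in every library. With all far anchors counted, those inside the gene included, the share was 4.96% and 4.78% in LW, against 6.23% and 5.82% in MS. With own anchors taken within 5 kb of a gene end in place of 1 kb, the distant far-anchor share was 0.889% and the between-anchor share 3.90% (means of 4 libraries). Loops from anywhere in the gene body numbered 18 and 12 in LW, with 17 and 8 in MS, of which 4, 1, 2 and 0 reached beyond 10 kb.

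The RNA nonetheless spread far. Elsewhere on chromosome 15, outside any own loop, lay 49.0% and 54.0% of its signal in LW and, in MS, 34.7% and 42.1%. These shares ranked 9th, 8th, 10th and 9th among the 491 to 630 RNAs with an own loop, whose medians were 0.0561% to 1.45%. The ranks were not adjusted for how far a gene's own loops reach, on which the share elsewhere depends. By the whole distant share it ranked 40th to 52nd, and SESN1 15th and 21st. Upstream bins of LRRFIP1 were listed out to 4.70 and 17.1 Mb in LW and 3.65 and 9.11 Mb in MS. A few runs of bins lay on other chromosomes, with 0.601% and 0.413% of the signal in LW, compared with 0 and 0.214% in MS, and no chromosome recurred between libraries.

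**Figure D4:**
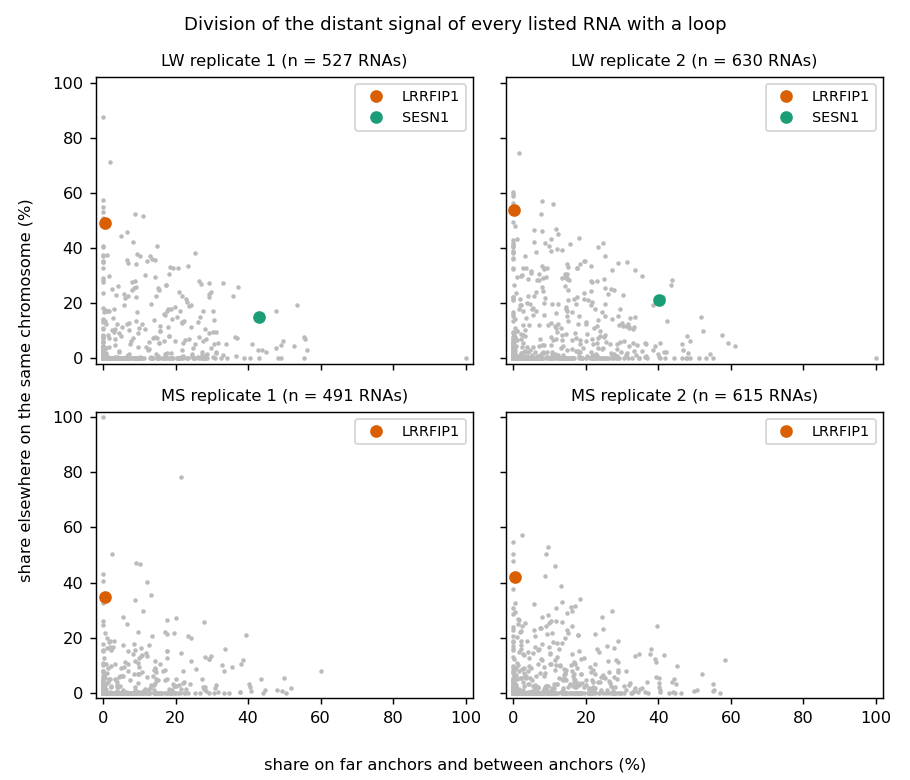
Each point is an RNA with an own loop, placed by the share of its signal on far anchors and between anchors (x axis, percent) and elsewhere on its chromosome (y axis, percent), in each of the 4 libraries. LRRFIP1 sits on the left edge, with 34.7% to 54.0% elsewhere, and SESN1 lies to the right of it, with 15.1% and 21.2% elsewhere.

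The LRRFIP1 signal differed between its sides. At 10 to 50 kb it was 74.8 and 81.3 per kb upstream in LW and, in MS, 75.4 and 86.7. Downstream it was lower in every library, with 44.9 and 55.9 in LW and, in MS, 40.3 and 47.0. At 50 to 100 kb upstream it was 75.6 and 74.7 in LW and, in MS, 63.3 and 73.1. At 50 to 100 kb downstream it was 27.2 and 28.9 in LW and, in MS, 51.3 and 52.7, above the MS level at 10 to 50 kb. At 100 to 200 kb upstream it was 47.5 and 41.5 in LW and, in MS, 17.1 and 14.6, and the breeds did not overlap. At the same distance downstream it was 17.4 and 27.4 in LW, against 23.03 and 30.58 in MS, and they did. These bands were noticed in the data and were not tested.

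Of 21 named protein-coding neighbours within 1000 kb, 13 had overlapping breeds. With 2 against 2 libraries, the breeds separate in either direction for a share of 0.333 of genes when nothing differs. Neighbours also share a smooth profile, so the counts and values below are a description and were not tested. LRRFIP1 RNA was higher in both LW libraries than in both MS libraries over 5, on either side of the gene (COL6A3, MLPH, PRLH, SCLY and HDAC4), and lower over 3 downstream (RAMP1, ILKAP and PER2). COL6A3, which encodes a chain of collagen VI in the muscle matrix, lies 180 kb upstream and had 27.8 and 26.4 per kb of LRRFIP1 RNA in LW, compared with 5.60 and 1.10 in MS. MLPH, which encodes the melanosome transport protein melanophilin, 63.6 kb upstream, had 66.4 and 71.9 in LW, against 56.4 and 51.9 in MS. SCLY, which encodes selenocysteine lyase, 198 kb downstream, had 27.7 and 30.4 in LW, against 14.1 and 13.6 in MS. RAMP1, encoding a receptor activity-modifying protein, 51.1 kb downstream, was lower in LW, with 26.4 and 28.4 against 52.1 and 53.2 in MS. PER2, a clock gene 354 kb downstream, had 7.84 and 4.70 in LW, with 7.98 and 11.12 in MS. HDAC4, a histone deacetylase gene 939 kb downstream, had 1.79 and 3.91 in LW, with 0 and 1.69 in MS.

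**Figure D5:**
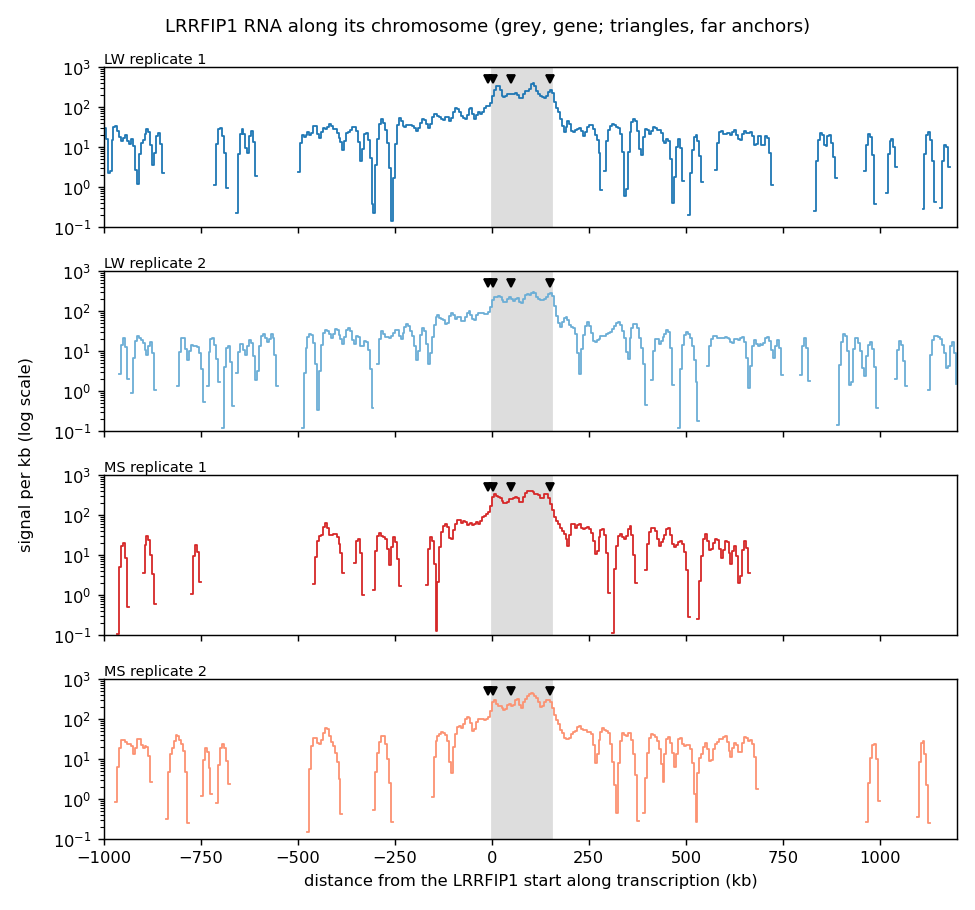
LRRFIP1 RNA signal per kb in steps of 5 kb (y axis, log scale, gaps where no bin was listed) against distance from the gene start along transcription (x axis, kb) in the 4 libraries, with the gene in grey and far anchors as triangles. The triangles stay at the gene, and the upstream stretch at 100 to 200 kb is filled in LW (47.5 and 41.5 per kb) and partly empty in MS (17.1 and 14.6).

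LRRFIP1 was the only one of the pair that could be compared between breeds as an RNA. Its reads were higher in LW by 0.42 ± 0.017 (SE) on the log2 scale, or 1.34-fold, over 2 against 2 libraries (edgeR quasi-likelihood test over 307 RNAs listed in all 4 libraries, Benjamini-Hochberg adjusted p = 3.0e-05). Both LW libraries, with 3567 and 3632 TMM-normalised CPM, lay above both MS libraries, with 2661 and 2727. The same test called 87% of those RNAs, so a call by itself says little about LRRFIP1. FOXO3 RNA was also higher in LW, by 0.21 ± 0.014 on the log2 scale (adjusted p = 0.00017). In whole muscle, fewer cells of a type and less RNA per cell cannot be told apart, and whether the libraries of a breed came from separate animals is not fully stated, so the p-values measure the spread between these libraries.

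The distant share of LRRFIP1, that is the signal beyond 10 kb on its chromosome, was 49.4% and 54.3% in LW and, in MS, 35.2% and 42.5%. The means differed by 13.0 percentage points, which is given with no test, since the reach of the RNA was what the pair was picked for. Over 289 RNAs limma called 0% for this share, and 74 had an unadjusted p under 0.05. Across these RNAs the distant share was higher in LW for 211, with a median difference of 3.35 points. The MS libraries had fewer LRRFIP1 reads, and the smallest signal they listed for it was higher, at 0.419 and 0.330 against 0.307 and 0.257 in LW. The part of read depth in the difference was not tested. The far-anchor share of LRRFIP1 differed by -0.067 points, likewise with no test, and rests on 3 bins of a loop called in LW replicate 2 alone. Over 244 RNAs limma called 0% for that share, and 31 had an unadjusted p under 0.05. The between-anchor share of LRRFIP1 was at 0 in both breeds.

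The loop score, the sum of -log10 loop values over a gene's own loops, was compared for 15266 genes with RefSeq ends by limma on log2(score + 1) after quantile normalisation. It called 0% of genes, with 836 at an unadjusted p under 0.05, and DESeq2 on rounded scores called 0. The SESN1 score was 48.3 and 107 in LW, compared with 51.9 and 82.5 in MS, a difference of -0.13 ± 0.76 (adjusted p = 1.0). The LRRFIP1 score was 0 and 20.3 in LW, against 11.6 and 19.2 in MS, a difference of -1.95 ± 1.46 (adjusted p = 0.95). The breeds overlapped for both genes. Without LW BL-HiChIP replicate 1 the LRRFIP1 difference was 0.23 and that of SESN1 0.33, and without MS BL-HiChIP replicate 2 that of SESN1 was 0.033, so no direction can be given for either.

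Genes of the same pathways were scarce among the listed RNAs. Of 38 genes of sestrin and amino acid sensing by mTORC1, none was listed in all 4 libraries. Of 10 partners and targets of LRRFIP1, FLII was listed in LW only with 894 and 954 reads, and EGFR in MS only with 11189 and 13423. Neither FLII nor EGFR was listed in both breeds, and no test of reads was made for either list. Loop scores were measured for 35 of the 38 genes, of which 13 were higher in LW and none passed, with a median of -0.45 against 0.018 over all genes. For the LRRFIP1 list, 9 of 10 were measured, 6 were higher in LW and none passed, with a median of 0.084. SESN2, the sestrin best known for leucine sensing, scored 21.3 and 5.52 in LW, and the MS values of 8.57 and 8.42 lay between them. SESN3, a sestrin induced by FOXO factors, scored 19.0 and 35.5 in LW, against 20.01 and 16.0 in MS. FLII, which encodes flightless I, scored 36.3 and 32.2 in LW, with 41.7 and 20.9 in MS.

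By the division of signal over all 6 parts, the gene-named RNAs most like LRRFIP1 over the 4 libraries were TMEM182, RORA and ACTN2, at Euclidean distances of 5.37, 8.90 and 9.79 percentage points, where the median over 249 RNAs was 53.3. TMEM182, a muscle membrane protein gene, had 41.0% of its RNA elsewhere on its chromosome and none on far anchors or between them, with 2 own loops. Most like SESN1 over the 2 LW libraries were ATP1B1, FOXO1 and PIK3R1, at 7.54, 14.9 and 15.3 points, where the median over 250 RNAs was 51.3. FOXO1, another forkhead factor gene, had 31.6% between its anchors and 14.1% on far anchors, and PIK3R1, which encodes a regulatory subunit of PI3-kinase, had 44.2% and 12.3%. The listed bins beyond 10 kb overlapped between replicates about as far for both members. For SESN1, 1143 bins were shared, 76.4% of those of LW replicate 1 and 55.0% of those of LW replicate 2. For LRRFIP1 in LW, 1396 bins were shared, 75.7% and 58.3%. Libraries of different breeds also shared bins, and the percentages depend on how many bins each library listed. The bins of each LW library were found more often in the other LW library than in either MS library. Those of each MS library were found more often in either LW library, which listed more bins. The most unequal pair, LW replicate 2 with 2396 LRRFIP1 bins and MS replicate 1 with 968, shared 877. These were 36.6% of the former and 90.6% of the latter.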

How the data were processed

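Skeletal muscle of LW and MS piglets was profiled by H3K27ac BL-HiChIP and GRID-seq, with 2 libraries per breed and assay. Members, gene lists and tests were chosen with earlier results of these data known. The authors aligned BL-HiChIP reads to Sscrofa11.1 with BWA-MEM and called loops with FitHiChIP on pairs with an H3K27ac peak at one anchor. The deposited loop files give anchors and a value read as the FDR, a q-value, all under 0.01. For GRID-seq the authors aligned linker-split RNA and DNA reads separately with Bowtie2 and removed ambiguous pairs with SAMtools. The deposited lists have no header. Their counts, read as the RNA reads of each RNA, were left unnormalised by the authors. The last deposited column was read as the signal of each 1-kb bin, made by the authors by selecting chromatin-enriched RNAs and correcting for a background of non-specific contacts. Signal is listed from 0.02, and unlisted bins were taken as 0. Bins listed more than once (1125 to 2036 pairs per library) were summed. Version numbers in the submitters' notes cover SAMtools 1.9 and Bowtie2 2.2.5.

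Own anchors lay within 1 kb of a gene end. Each bin was assigned once, in the order gene body, 10 kb flank, far anchor, between, elsewhere and other chromosomes. Reads were tested with edgeR 4.0.16 (TMM, quasi-likelihood), shares and loop scores with limma 3.58.1 (pseudocount 1 for the score), at an adjusted p threshold of 0.05, with LW minus MS as the sign. RNAs with a share of 0 in all 4 libraries were left out of the share tests. DESeq2 1.42.0 was an alternative. The SE of an edgeR fold change was derived from its F statistic. A loop value of 0 (at most 1 per library) was set to the smallest non-zero value of its library. The scripts were tested on simulated data with 200 changed features. The counts are the only measure of depth, and the number of reads behind a bin is not given, so no interval was attached to a share. Named genes were the 2 members, genes with an end on a far anchor, the 3 RNAs with the most similar division (for SESN1 over the 2 LW libraries, since it had no MS values), up to 3 other RNAs on the far anchors, and the pathway lists. LRRFIP1 neighbours (named RefSeq protein-coding genes within 1000 kb), FOXO3 RNA at the SESN1 start, TRDN and the distant share were added after the values were seen. A pathway gene is not reported here.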

Additional observations from a re-analysis of the deposited data

How the results depend on the processing

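The division of the signal depended on how loops and zones were set. The cause of each move was not tested. For SESN1 the far-anchor share (4.34%, mean of 2 LW libraries) and the between-anchor share (37.3%) became 1.57% and 32.2% with loops called in both LW libraries, 3.09% and 35.3% with loop values of at most 0.001, 3.57% and 35.1% with a local zone of 25 kb, 5.09% and 40.0% with none, 3.68% and 42.0% by number of bins, and 10.6% and 31.3% with anchors widened by 5 kb. Both were 0 with loops called in all 4 libraries, because none was. The far-anchor share was 3.72% with loops of the same breed, 5.07% with own anchors within 5 kb, 5.97% with RefSeq gene ends and 4.77% with a local zone of 5 kb. Leaving out a library in turn gave 3.40% to 4.42% and 33.3% to 38.6%, the lowest without LW BL-HiChIP replicate 2. For LRRFIP1 the far-anchor share (0.389%) was 0.178% with loops of the same breed, 0 with loops of both libraries of a breed, of all 4 libraries, or a local zone of 25 kb, 0.889% with own anchors within 5 kb, 0.659% with a local zone of 5 kb or none, 0.177% by number of bins and 0.995% with widened anchors. Leaving out a library gave 0 to 0.413%, with 0 when LW BL-HiChIP replicate 2 was left out. Its between-anchor share (0) was 3.90% with own anchors within 5 kb, 0.415% with a local zone of 5 kb and 0.740% with none, and stayed at 0 when a library was left out. In settings chosen after seeing the data, any anchor in the gene body gave 3.09% and 8.95% for LRRFIP1 and 7.14% and 34.5% for SESN1, and leaving out runs of 30 bins or less gave 4.67% and 39.9% for SESN1.

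The higher LRRFIP1 reads in LW passed the threshold in all alternatives, at 0.36 to 0.55 on the log2 scale, with 0.55 without TMM. The distant-share difference kept its direction in the alternatives run. The SESN1 loop-score difference turned to 0.14 without normalisation and 0.21 in DESeq2, and ranged from -0.56 to 0.33 with a library left out. That of LRRFIP1 ranged from -4.10 to 0.23. The LRRFIP1 far-anchor difference between breeds turned to 0.36 points with loops of the same breed. The number of RNAs called for the far-anchor share was 7 with loops of the same breed and 1 among RNAs with at least 2000 reads, and 2 for the distant share without short runs.

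Libraries of the 2 breeds share only a replicate number. Deviations of same-numbered libraries correlated at 0.94 over RNA reads, 0.36 over loop scores and 7.6e-05 over far-anchor shares. With a replicate block the LRRFIP1 differences were 0.42 for reads (273 RNAs called), 13.0 points for the distant share, -0.067 points for the far-anchor share and -1.95 for the loop score, and -0.13 for the SESN1 loop score, and the block changed no call for reads or loop scores of either gene. The smoothing of the signal and the missing SESN1 rows in MS limit these results. No alternative could be fitted for the SESN1 RNA between breeds.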
